A study of Danio rerio with 5 samples.

Results

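Both libraries of zebrafish embryos with RfxCas13d and a pool of guide RNAs, 1 with 10 guides and 1 with 25, were set against the 3 RfxCas13d control libraries of the series. All 5 libraries were RNA sequencing of whole embryos at 4 hours after fertilisation. The pool of 10 held a guide against szrd1 and 9 others, and the pool of 25 held the szrd1 guide and 24 others, with the targets of the other guides not given in the sources used here. Each pool was a single library with no replicate. The controls carried RfxCas13d too, per their labels, and whether they also received a guide is not given in the sources used here. No label ties the controls to separate clutches or injections, and the spread behind every p-value below may therefore be technical. The kit's reaction volume was cut to 1/4 for control replicates 1 and 2, whereas 1/8 was used for the third control and for the pools. Control replicate 3 was thus the only control made like the pools.

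Genes were chosen by size, from normalised read counts in counts scaled to library size (CPM). A gene counted as lower where every control was at 10 CPM or more and both pools were at or under 1/2 of the lowest control. It counted as higher where both pools were at 10 CPM or more and at least 2-fold above the highest control. This gave 37 lower genes of the 8178 whose controls all reached 10 CPM (0.452%). It gave 73 higher genes of the 8990 whose pools both reached 10 CPM (0.812%). At these shares, 0 or 1 member from a gene list named below is no result about that list. The levels of these 110 genes in the 5 libraries chose them, so these values are a description and carry no test. Without control replicate 3 the same rule gave 995 and 1039 genes, and without each of the other 4 libraries in turn it gave 50 to 131 lower and 94 to 171 higher genes.

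RfxCas13d is a bacterial nuclease that cuts RNA where a guide RNA pairs with it, so that an injected guide lowers its target transcript without changing the genome. At the stage sampled the embryo is a blastula that passes from transcripts supplied by the egg to transcripts of its own genome. Many maternal mRNAs are cleared over this period while the first zygotic genes are switched on.

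Gene counts were between 5283761 and 14179837 per library, and the lowest total was that of control replicate 3. A single count stood for 0.0844 to 0.174 CPM. Entries that name no gene took 53.8% of the counts in control replicate 3 and 26.7% to 33.9% in the other libraries, and unmapped reads alone took 44% and 13.1% to 21%. The embryo label was checked with marker genes. The 9 maternal markers summed to 5244 to 5782 CPM in the controls and to 5547 and 5166 CPM in the pools, and 8 markers of later tissues summed to at most 2.63 CPM in any library. The maternal sum hid unlike members. buc was at 644, 383 and 603 CPM in the controls and at 1039 and 919 CPM in the pools. sox19b and eomesa also had both pools above every control, as did 15.2% of all tested genes. No maternal marker had both pools below every control. h1m was at 2036, 1759 and 681 CPM in the controls and at 702 and 646 CPM in the pools. The 10 zygotic markers summed to 776 to 1477 CPM in the controls, and to 808 CPM in the pool of 10 and 705 CPM in the pool of 25. The 5 yolk syncytial layer markers summed to 245 to 526 CPM in the controls and to 187 and 189 CPM in the pools. Most of each sum was mxtx2, at 190 to 457 CPM in the controls and at 151 and 156 CPM in the pools. No other marker of this layer had both pools below every control. The 8 enveloping layer markers spread widely in the controls, from 1160 to 2990 CPM, and both pools were inside that range at 1480 and 1425 CPM. klf17 was counted in both the zygotic and the enveloping layer sum, so these sums are not independent. It was at 597.2, 509.1 and 242.5 CPM in the controls and at 280.5 and 256.5 CPM in the pools. In whole embryos, fewer cells of a type and less RNA per cell cannot be told apart. What part the maternal, yolk layer, zygotic and enveloping layer levels have in the results below was not tested.

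The targeted transcript, szrd1 (ENSDARG00000056338), which encodes a small protein with a SUZ domain, was at 220, 279 and 312 CPM in the 3 controls, in replicate order. It was at 41.3 CPM in the pool of 10 and at 45.6 CPM in the pool of 25. Both pools were far below the 3 controls and close to each other, at 15.3% and 16.9% of the control mean of 270 ± 46.8 CPM (SD, n = 3). This is a log2 fold change of -2.64 (SE 0.39), with -3.51 to -1.76 as its 95% interval. In edgeR's quasi-likelihood test it had an unadjusted p of 6.52e-05 and did not pass after Benjamini-Hochberg adjustment over 14838 genes (adjusted p = 0.323). Of 15 other ways of fitting the data, 4 put szrd1 past the threshold of 0.05. Those were DESeq2 (adjusted p = 9.49e-08), edgeR without a filter on low counts (0.0004), with a term for library volume (0.0367) and without control replicate 3 (0.00262). The log2 fold change stayed between -2.84 and -2.05 in all 15, and the adjusted p ranged from 9.49e-08 to 0.948. In control replicate 3 szrd1 was above the other controls, so the library that shared the volume of the pools did not lie toward them for this gene.

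Across all genes, edgeR called 0 of 14838 genes lower (0%) and 0 higher (0%) in both pools. Before adjustment, 1003 genes were lower (6.76%) and 613 higher (4.13%) at p under 0.05. Without control replicate 3, edgeR called 2198 genes lower and 2076 higher. With all libraries DESeq2 called 73 genes lower (0.492%) and 40 higher (0.27%). The 37 lower genes included 19 of the DESeq2 calls, which is 51.4% of the set and 26% of the calls. The 73 higher genes included 28, which is 38.4% of the set and 70% of the calls. Because the sets and the tests used the same libraries and contrast, these shares are no independent support. With the library volume as a term, edgeR called szrd1 and abhd17c lower and kyat3 higher. With this term, control replicates 1 and 2 get a level of their own and the pools are set against control replicate 3 alone. That single library has no replicate, so the SE and p with this term come from the spread between control replicates 1 and 2 and between the pools, and it is assumed to vary like them.

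The lower genes had control means of 12.3 to 270 CPM, with a median of 33.1 CPM. Control means lay between 2.15 and 34.6 times the mean of the pools, with a median of 4.08 times. Of the 37 genes, 26 carried a gene symbol of their own and 11 a clone or accession name. Those with a name of their own spread over many roles, and no role held more than 3 genes. Besides szrd1, they covered core histones, iron storage, microtubules and cilia, ribosome production and RNA decay, DNA repair, nucleotide hydrolysis, small GTPases, secreted proteins and small-molecule metabolism.

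Of the genes that remove or attach lipids on proteins, abhd17c (ENSDARG00000058452), a hydrolase that strips palmitate from membrane proteins in mammals, was lower in both pools. Its controls were at 104, 89.9 and 145 CPM, and the pools of 10 and 25 at 15.4 and 23.4 CPM. The highest pool was thus 3.83 times under the lowest control. Its log2 fold change was -2.54 (SE 0.44, 95% interval -3.52 to -1.55; edgeR, adjusted p = 0.42). With the volume term it was -2.90 (SE 0.32, interval -3.63 to -2.18; edgeR, adjusted p = 0.043). Like szrd1, abhd17c was above the other controls in control replicate 3, and its transcript was longer than that of the median gene. Of 10 tested genes for this and other depalmitoylating enzymes, 8 lay below 0, with a median log2 fold change of -0.27, beside -0.05 over all tested genes.

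The gene fthl28 (ENSDARG00000076221), a copy of the ferritin heavy chain that stores iron, was at 117, 141 and 38.6 CPM in the controls. The pools were at 1.62 and 4.93 CPM, 12 and 36 counts. Control replicate 3 lay between the other controls and the pools, and both pools were 7.83-fold or more below it. On the log2 scale fthl28 differed by -4.91 (SE 0.77), and -3.56 with the volume term. All 7 tested ferritin heavy chain genes lay below 0, with a median of -1.19, but in control replicate 3 against the other controls their median was -1.33. Against control replicate 3 alone the pools were at a median of -0.29. The gene belongs to a family of several copies and multi-mapped reads were kept as a separate entry, so its counts are uncertain.

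Of the core histones, which package DNA and are made in quantity during cleavage, both members of the lower set encode H2A. hist1h2a1 was at 22.9, 53.2 and 23.7 CPM in the controls and at 7.02 and 4.8 CPM in the pools. hist1h2a10 was at 18.1, 21.3 and 17.1 CPM and at 5.94 and 5.75 CPM in the pools. For both genes control replicate 3 was close to control replicate 1. Of 51 tested histone genes 49 lay below 0, with a median of -1.07. The same list was at -0.76 in control replicate 3 against the other controls and at -0.40 in the pools against control replicate 3. Histone genes are also a family of many copies with uncertain counts, and how their transcripts without long poly(A) tails enter the libraries is not given in the sources used here.

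Microtubule and cilium genes in the lower set were stmn1b, ssna1 and arl6. stmn1b, a stathmin that binds tubulin and lets microtubules shrink, was at 18, 40.1 and 24.2 CPM in the controls. The pool of 10 had 8 counts of it (1.08 CPM) and the pool of 25 had 50 (6.85 CPM), so the pools themselves differed more than for most genes. ssna1, a microtubule-binding protein of the centrosome, was at 27.6, 43.3 and 28.4 CPM in the controls and at 6.21 and 10 CPM in the pools. arl6, a small GTPase that acts with the Bardet-Biedl protein complex at cilia, was at 62.6, 60.8 and 65.4 CPM in the controls and at 28.5 and 26.4 CPM in the pools. Its controls were within a few percent of each other, and the pools lay just past the 2-fold limit. Of 5 tested stathmins 4 lay below 0, with a median of -0.09.

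nudt12, a Nudix hydrolase whose mammalian counterpart splits NADH, was at 11.8, 12.3 and 12.7 CPM in the controls and at 0.81 and 3.7 CPM in the pools. The controls of nudt12 were almost equal. Among small-molecule enzymes, the mu-class glutathione transferase gstm.2 was at 20.8, 13.4 and 14.8 CPM in the controls and at 5.54 and 5.62 CPM in the pools. The urate-breakdown enzyme urahb was at 93.5, 197 and 47.7 CPM and at 23.5 and 10.8 CPM, with control replicate 3 toward the pools.

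Secreted and signalling proteins in the lower set included sostdc1a, an antagonist of BMP and Wnt ligands, at 14.2, 29 and 21.2 CPM in the controls and 4.05 and 6.03 CPM in the pools. The matrix protein gene ecm1b was at 17.6, 42.4 and 37.6 CPM and at 5.13 and 8.08 CPM. For both genes control replicate 1 was the lowest control, not control replicate 3. The Ras-like GTPase gene rap2b was at 50.3, 50 and 41 CPM in the controls and at 14.6 and 17.7 CPM in the pools. The phosphatase gene ctdspl2a was at 40.9, 42.9 and 79.2 CPM and at 18.1 and 16.7 CPM, with control replicate 3 the highest of the 5 libraries.

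Genes for RNA handling and DNA repair were few. exosc3, a subunit of the RNA exosome, was at 37, 26 and 13.4 CPM in the controls and at 6.48 and 5.48 CPM in the pools, with control replicate 3 toward the pools. Of 46 tested genes for RNA decay and deadenylation, exosc3 was the only one in either set, and 33 of the 46 lay above 0, with a median of 0.41. The same list was at 0.70 in control replicate 3 against the other controls and at 0.08 in the pools against control replicate 3. The ribosome assembly genes pak1ip1 and wdr74 were 2.56-fold and 2.29-fold lower in the mean of the pools. mrnip, whose human counterpart binds the MRN complex at DNA breaks, was at 36, 32.8 and 36.9 CPM in the controls and at 15.8 and 14.5 CPM in the pools. The mitochondrial co-chaperone gene grpel2 was at 25.4, 31.6 and 26.4 CPM in the controls and at 10.5 and 8.36 CPM in the pools. The 3 controls were close for mrnip and grpel2. rpz2, of the rapunzel family, was at 53.5, 61.9 and 13.1 CPM in the controls and at 3.11 and 5.21 CPM in the pools.

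**Figure D1:**
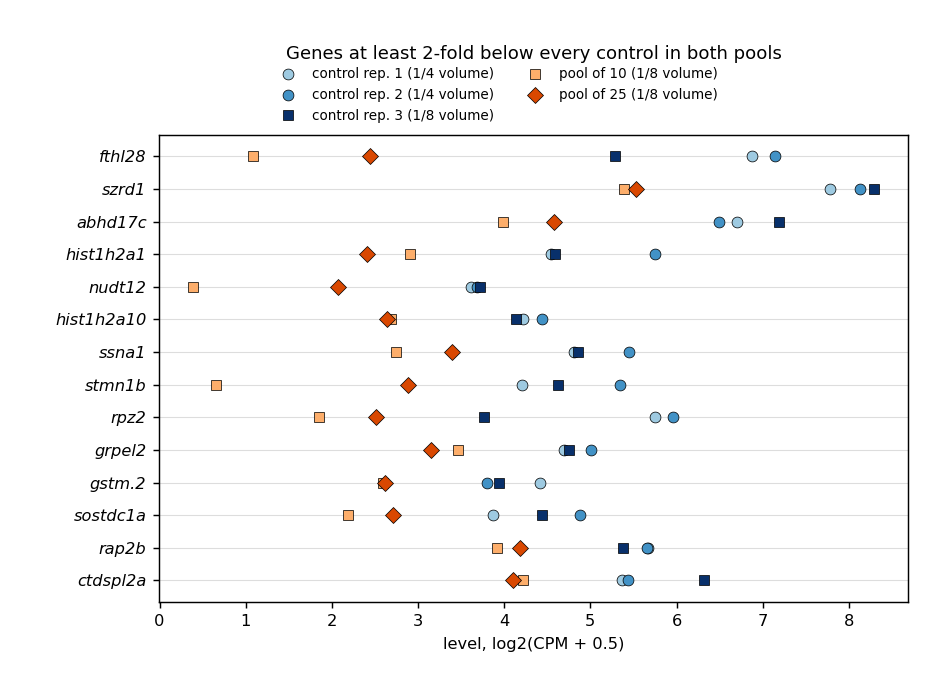
Levels of 14 of the 15 lower genes with the widest gap between pools and controls, among those with a symbol of their own. The x axis is log2(CPM + 0.5), and each point is 1 library: circles for the controls at 1/4 volume, dark squares for control replicate 3, light squares and diamonds for the pools of 10 and 25. The pools lie left of every control in each row, and among the controls, control replicate 3 lies nearest to them for fthl28, hist1h2a10, rpz2 and rap2b and farthest from them for szrd1, abhd17c, nudt12 and ctdspl2a.

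Among the 11 lower genes named by clones, si:dkey-23i12.9 was at 10.8, 33 and 13.1 CPM in the controls. It had no count in the pool of 10, where 3 counts would be 0.405 CPM, and 8 counts (1.1 CPM) in the pool of 25. si:ch1073-80i24.3 was at 77.7, 149 and 71 CPM in the controls and at 16.9 and 19.1 CPM in the pools. FO082779.2 was at 40.3, 34.8 and 40.7 CPM and at 9.86 and 9.04 CPM. In these genes control replicate 3 was close to control replicate 1. In contrast, si:dkey-9c18.3, at 150, 282 and 46.8 CPM in the controls and 17.7 and 10.4 CPM in the pools, had control replicate 3 toward the pools. That both pools were low against every control is set by the rule. No function is given to these genes in the files.

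The higher genes started from lower levels. Their control means had a median of 8.32 CPM (0.48 to 113 CPM) and their pool means a median of 33.1 CPM (10.1 to 395 CPM). The mean of the pools was 2.25 to 30.4 times the control mean, with a median of 3.57 times. Of the 73 genes, 66 carried a symbol of their own. By role, 12 belonged to transcription and chromatin, 12 to intracellular signalling, 8 to membrane traffic and lysosomes, 5 to membrane transport and 4 to microtubules and cilia. No function was assigned to 7, and the remaining classes held 4 genes or fewer. In both sets the roles were assigned after the values were seen. Their shares over all tested genes are not given here, so the counts by role only describe the sets. In 6 of the 73 genes at least 1 control had 3 counts or fewer.

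Among transcription factors, etv5a (ENSDARG00000069763), an ETS factor that acts downstream of FGF signalling, was at 121, 103 and 113 CPM in the controls and at 405 and 385 CPM in the pools. In CPM the controls were close together, and both pools were 3.18-fold or more above the highest. In the deposited TPM the controls were at 46.9, 32.4 and 76.6 and the pools at 214 and 225. etv5a met the rule in TPM but not after the adjustment for length described below. On the log2 scale etv5a differed by 1.81 (SE 0.33, 95% interval 1.07 to 2.55; edgeR, adjusted p = 0.42), and 1.80 with the volume term. The MADS-box factor gene mef2d was at 4.32, 7 and 6.78 CPM in the controls and at 24.6 and 25.4 CPM in the pools. The PR-domain factor gene prdm12b was at 1.95, 3.29 and 3.48 CPM and at 13.8 and 10.4 CPM. Of the forkhead repressors of the Foxp family, foxp4 was at 4.24, 5.23 and 6.96 CPM in the controls and at 20.1 and 24.7 CPM in the pools. Its relative foxp1a was at 39.8, 20.9 and 56.7 CPM and at 134 and 117 CPM, with control replicate 3 the highest control in both. The clock factor gene arntl2, also named bmal2, was at 40.7, 36.3 and 43.5 CPM in the controls and at 101 and 117 CPM in the pools. Of 30 tested clock genes 23 lay above 0, with a median of 0.30, and control replicate 3 against the other controls was at 0.46. Other members of this class were smarcd2, a subunit of SWI/SNF remodelling complexes, polr2m, irf2bp1, atmin, stox2b and hmgxb3, at 2.76-fold to 3.75-fold.

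Genes that tune extracellular signals were hhip, rfng and tsku. hhip, which binds Hedgehog ligands and limits their signal, was at 2.88, 3.04 and 3.13 CPM in the controls and at 30.9 and 15.2 CPM in the pools. Its controls were nearly equal, and the pool of 10 was about 2-fold above the pool of 25. rfng, a fringe glycosyltransferase that modifies Notch, was at 35.4, 40.4 and 39.3 CPM in the controls and at 172 and 135 CPM in the pools. Its log2 fold change had a 95% interval of 1.22 to 2.78 (edgeR, adjusted p = 0.42) and was 1.96 with the volume term. tsku, which encodes a secreted leucine-rich protein, was at 17.4, 18.2 and 21.1 CPM and at 49.3 and 46.5 CPM. The relaxin-family receptor gene rxfp2a was at 5, 3.71 and 4 CPM in the controls and at 14.2 and 19.9 CPM in the pools.

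The germ granule gene tdrd6 (ENSDARG00000070052), whose Tudor-domain protein helps to gather germ plasm in zebrafish, was at 16.6, 10.6 and 21.2 CPM in the controls. It was at 77.5 CPM in the pool of 10 and 93.5 CPM in the pool of 25. Both pools were at least 3.65-fold above the highest control, which was control replicate 3. Its log2 fold change was 2.41 (SE 0.42, 95% interval 1.47 to 3.35; edgeR, adjusted p = 0.42), and 2.01 with the volume term. Its transcript was 3.61 times as long as that of the median gene. It was the only one of 23 tested germ plasm genes in either set. Of these 23, 17 lay above 0, with a median of 0.60, beside 0.62 in control replicate 3 against the other controls and 0.15 in the pools against control replicate 3.

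Transporters in the higher set carried zinc, nucleosides and nucleotide sugars. slc39a10, a zinc importer of the plasma membrane, was at 23.3, 17.9 and 20.7 CPM in the controls and at 97.7 and 65 CPM in the pools. slc29a2, an equilibrative nucleoside transporter, was at 20.9, 15.1 and 17.1 CPM and at 61 and 48.4 CPM. slc6a16a, of the neurotransmitter transporter family, was at 3.9, 4.13 and 4 CPM and at 10.7 and 21.6 CPM. In all 3 the controls were close to each other, control replicate 3 included. slc35a3a, a carrier of UDP-N-acetylglucosamine into the Golgi, was different, with 65 and 145 counts in control replicates 1 and 2 (5.51 and 12.2 CPM) and 2 counts in control replicate 3 (0.348 CPM). It was at 48 and 42.3 CPM in the pools. Of 14 tested zinc transporters 11 lay above 0 with a median of 0.34, and of 219 other solute carriers 123 lay above 0 with a median of 0.11.

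The aminotransferase gene kyat3 (ENSDARG00000101791), which acts on kynurenine, behaved like slc35a3a. It was at 11.2, 10.8 and 1.91 CPM in the controls and at 48.8 and 46.3 CPM in the pools. The log2 fold change was 2.55 (SE 0.63; edgeR, adjusted p = 0.454). With the volume term, which leaves control replicate 3 as the baseline, it was 4.62 (SE 0.50, interval 3.48 to 5.77; edgeR, adjusted p = 0.043). That call thus rests on a control library with 11 counts of the gene, and the other controls were both nearer to the pools. The signalling gene dock8 and the receptor-like gene shisa4 also had 2 counts each in control replicate 3, and were at 12.2 to 17.1 CPM and at 10.6 and 13.9 CPM in the pools.

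In intracellular signalling, mcf2a, a guanine nucleotide exchange factor of the Dbl family, was at 1.7, 4.3 and 1.22 CPM in the controls and at 18.1 and 19.1 CPM in the pools. The protein kinase C gene prkcaa was at 16.7, 12.3 and 7.31 CPM and at 61.3 and 42.1 CPM. The ribosomal S6 kinase gene rps6ka1 was at 21.1, 19.9 and 30.8 CPM and at 87.2 and 67.4 CPM. The controls of mcf2a and prkcaa spread more than 2-fold. The p53 inhibitor gene mdm4 was at 65.1, 42.9 and 102 CPM in the controls and at 253 and 217 CPM in the pools. None of 21 tested p53 response genes was in either set, where the sets took 0.452% and 0.812% of genes at the rule's floors. Of the 21, 16 lay below 0, with a median of -0.14. Their median was -0.27 in control replicate 3 against the other controls and -0.03 in the pools against control replicate 3.

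Membrane traffic was represented by rab5b, a GTPase of early endosomes, at 1.27, 3.88 and 1.91 CPM in the controls and 27.8 and 19.3 CPM in the pools. It had the shortest relative length of the higher set, 0.388 times the median gene, which is the side on which few higher genes lay. The endocytic genes hip1rb, epn3a and aftphb, the Arf activator gene iqsec1b, the membrane repair gene myof and the lysosomal genes grnb and hps1 were 2.25-fold to 3.76-fold higher. Cilium and microtubule genes were ift88, an intraflagellar transport protein, invs, kifap3a, the adaptor of kinesin-2, and camsap3, which holds microtubule minus ends, at 2.71-fold to 3.79-fold. No kinesin heavy chain was in either set, although 30 of 32 tested kinesins lay above 0, with a median of 0.65. Control replicate 3 was at 0.70 for the kinesins against the other controls, and the pools were at 0.28 against control replicate 3.

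Both type IA topoisomerase 3 genes were in the higher set. top3b was at 4.49, 6.92 and 5.74 CPM in the controls and at 20.8 and 20.4 CPM in the pools. top3a was at 8.73, 4.81 and 10.6 CPM and at 22.6 and 21.5 CPM. Neither gene met the rule after the adjustment for length described below, and in TPM top3a met it but top3b did not. The adhesion genes cdh2, which encodes N-cadherin, and jupa, which encodes plakoglobin, were 3.18-fold and 2.56-fold higher, jupa at 52.2, 95.9 and 91.7 CPM in the controls and at 205 CPM in each pool. Of genes for mitochondria, the protease gene afg3l2 was at 13.1, 15.4 and 11.3 CPM in the controls and at 43.6 and 42.6 CPM in the pools. stard7, which carries phosphatidylcholine to mitochondria, was at 35.9, 27.8 and 53.6 CPM and at 161 and 118 CPM.

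At the widest gaps stood genes close to the counting floor in the controls. mybpc2b (ENSDARG00000021265), a myosin-binding protein of fast skeletal muscle, had 3, 9 and 5 counts in the controls (0.254, 0.759 and 0.87 CPM) and 137 and 144 in the pools (18.5 and 19.7 CPM). Its log2 fold change was 4.95 (SE 0.66, 95% interval 3.46 to 6.44; edgeR, adjusted p = 0.228). The deposited TPM gave 0.09, 0.23 and 0.3 in the controls and 8.79 and 10.3 in the pools. It was the only one of 29 tested muscle contractile genes in either set, and the median of that list was 0.00. CABZ01075125.1 was at 2.97, 1.44 and 1.39 CPM in the controls and at 36.7 and 33.7 CPM in the pools (edgeR, adjusted p = 0.228). ankrd33bb had 17 counts in control replicate 1, none in the other controls and 88 and 91 in the pools, at 11.9 and 12.5 CPM.

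**Figure D2:**
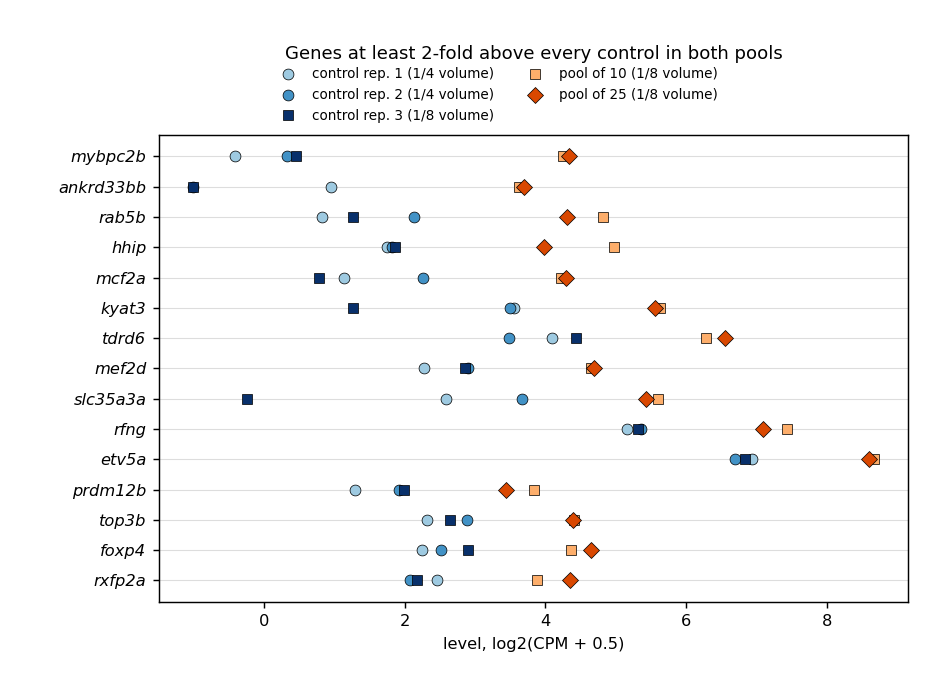
Levels of the 15 higher genes with the widest gap between pools and controls, among those with a symbol of their own. The x axis is log2(CPM + 0.5), so a gene with no count lies at -1, and each point is 1 library, marked as in the plot of lower genes. The pools lie right of every control in each row, and control replicate 3 is far below the other controls for kyat3 and slc35a3a.

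Both pools gave like levels for most of the higher genes and less often for the lower genes. The pools were within 1.5-fold of each other for 23 of the 37 lower genes and 69 of the 73 higher genes. The share over all tested genes is not given here. The pool of 25 was the lower of both pools in 14 lower genes and the higher in 23. Among the higher genes it was lower in 45 and higher in 28. The rule asks both pools to lie on the same side of the controls, so their closeness is partly set by the choice of genes. Just inside the lower limit lay soul4 and wdr74, whose nearest control was 2.003 and 2.01 times the nearest pool, and just outside lay rp9 at 1.99 and rdh12l at 1.96. On the higher side hps1 and grnb lay just inside, at 2.01 and 2.02 times, and fbxo10 and BX276105.1 just outside, at 1.99 each. Over all tested genes, both pools lay below every control in 2220 genes (15%) and above every control in 2259 (15.2%), with no limit on size.

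**Figure D3:**
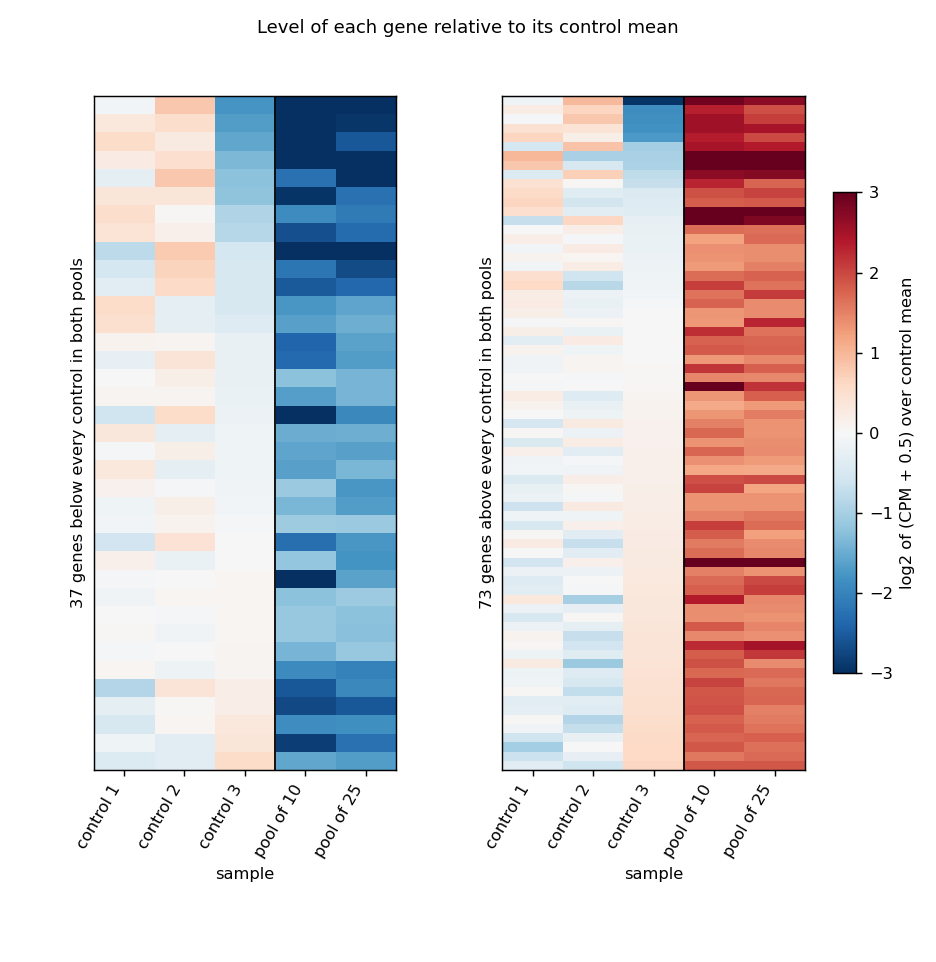
Level of each of the 37 lower genes (left) and 73 higher genes (right) in the 5 libraries, as log2 of (CPM + 0.5) over the same for the control mean, blue below and red above it. Genes are ordered by the level of control replicate 3 against the other controls, and the colour scale ends at -3 and 3. The pools are blue throughout on the left and red throughout on the right, while control replicate 3 takes the colour of the pools in the top rows on the left and in the bottom rows on the right.

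Control replicate 3 stood apart from the other controls. By a 2-fold rule of the same kind it was below control replicates 1 and 2 in 1469 of 8798 genes (16.7%) and above them in 1550 of 9398 (16.5%). Both pools were below these same 2 controls in 995 genes and above them in 1039. These counts are of 1 library or 2 against 2 controls, so they cannot be read against the 37 and 73 genes beyond all 3. Set against control replicate 3 alone, both pools were below it in 236 of 9398 genes (2.51%) and above it in 297 of 8990 (3.3%). Among the 37 lower genes, control replicate 3 was the lowest control in 16, the highest in 10 and between the others in 11. It lay more than 2-fold toward the pools in 8, among them fthl28, rpz2, exosc3, urahb and si:dkey-9c18.3, and more than 2-fold away from them in 0. Of the 37, 6 passed the lower rule in control replicate 3 itself, a share near the 16.7% of genes at large. Among the 73 higher genes it was the highest control in 38, and 0 passed the higher rule in control replicate 3, which asks for at least 10 CPM there. It lay more than 2-fold toward the pools in 3 of the 73 and away from them in 9, kyat3, slc35a3a, dock8 and shisa4 included. The 3 controls were thus unequal for part of both sets, and the shares of all tested genes with control replicate 3 lowest, highest or between are not given here. With 0.5 CPM added to each level, control replicate 3 was within 1.5-fold of the mean of the other controls for 24 lower genes. Among them were szrd1, abhd17c, nudt12, stmn1b, sostdc1a and arl6. The same held for 47 higher genes, among them etv5a, rfng, hhip, mef2d, top3b, foxp4 and slc39a10. mybpc2b was 1 of the 47 only through the added 0.5 CPM, with controls at 0.254, 0.759 and 0.87 CPM. For the 24 and the 47 genes the mean of the pools was a median of 2.97-fold below the controls and 3.09-fold above them. The rule asks at least 2-fold of every member, so these medians are largely set by the choice of genes. The share of all tested genes with controls this close is not given here.

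The sets also differed in transcript length, read from the deposited tables as count over TPM and given relative to the median gene. The lower genes had a median relative length of 0.68 (quartiles 0.43 and 0.847), and 30 of 37 were shorter than the median gene. Of the 37, 15 (40.5%) lay in the shortest of 5 equal groups of all tested genes and 0 in the longest. The higher genes had a median of 1.69 (quartiles 1.34 and 2.2), and 63 of 73 were longer than the median gene. Of the 73, 35 (47.9%) lay in the longest group and 2 in the shortest, rab5b and si:dkey-258f14.2. The 7 lower genes longer than the median gene included szrd1 at 1.11, abhd17c at 1.44, FO082779.2 at 1.42, ecm1b at 1.42 and rap2b at 1.35.

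The same slope with length ran through all genes. From the shortest to the longest of the 5 groups, the median log2 difference of both pools from the controls was -0.79, -0.40, -0.03, 0.30 and 0.48. In control replicate 3 against control replicates 1 and 2 it was -0.98, -0.57, -0.05, 0.46 and 0.80. In both pools against control replicate 3 it was 0.01, 0.05, 0.01, 0.01 and -0.00. The slope was therefore present within the controls, between the library volumes, and absent between the pools and the control of their own volume. Other differences between control replicate 3 and the other controls, such as its depth and unmapped share, cannot be told apart from the volume. When each gene's fold change was taken less the median of genes of like length, the median was -1.62 for the lower genes and 1.46 for the higher genes, and 28 of 37 and 62 of 73 still exceeded 1 on the log2 scale. The rule had put every one of these genes at least 2-fold beyond all controls, so these values are largely set by their choice. With CPM adjusted for length in each library, 16 of the 37 and 27 of the 73 still met the rule. Those that no longer met it included hist1h2a1, hist1h2a10 and ssna1 of the lower set. Of the higher set they included etv5a, rfng, slc39a10 and arntl2.

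**Figure D4:**
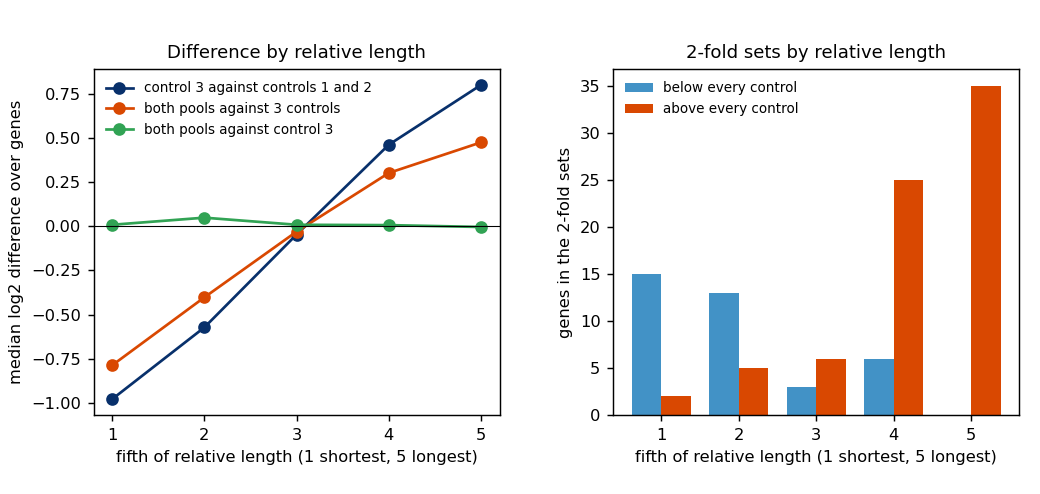
Left, median log2 difference over the tested genes in each of 5 equal groups by relative length, for the pools against 3 controls (orange), control replicate 3 against the other controls (dark blue) and the pools against control replicate 3 (green). Right, number of genes of the lower set (blue) and the higher set (orange) in each group. The orange and dark blue lines climb from -0.79 and -0.98 to 0.48 and 0.80, the green line stays within 0.05 of 0, and the lower and higher sets gather at opposite ends.

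Other ways of scaling kept part of each set. The rule was met with TMM factors, RLE factors, library size alone, TPM and length-adjusted CPM alike by 8 lower genes. Those were szrd1, abhd17c, fthl28, rpz2, urahb, si:ch1073-80i24.3, FO082779.2 and si:dkey-9c18.3. It was met in all these scalings by 19 higher genes, among them ankrd33bb, rab5b, kyat3, tdrd6, slc35a3a, rxfp2a, hip1rb, slc6a16a, tsku and foxp1a. nudt12 left the set in TPM because control replicates 1 and 2 were at 8.11 and 7.99 TPM, under the floor of 10, and stmn1b because the pool of 25 was at 7.57 TPM and the lowest control at 13.2 TPM. Lower genes were 33.6% of both sets together with TMM factors, 17.6% with library size alone and 19.8% with TPM. Library size alone moved the median log2 fold change of all genes from -0.05 to 0.17.

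Of 77 tested cytosolic ribosomal protein genes 76 lay below 0 in the pools against the controls, with a median log2 fold change of -1.12. They were at -1.47 in control replicate 3 against the other controls and at -0.02 in the pools against control replicate 3, and 0 were in either set. Mitochondrial ribosomal proteins (73 of 74 below 0) were at -0.86, -1.17 and 0.05 in the same order. Nuclear-encoded respiratory chain subunits (82 of 87 below 0) were at -0.98, -1.52 and 0.10. In these 3 groups the pools were within 0.10 of the control of their own volume. Transcripts of the mitochondrial genome, also short, differed from these groups, with 10 of 13 below 0 and a median of -0.53, control replicate 3 at -1.12 and the pools at 0.57 against it. Keratins, which are made in the enveloping layer, were at -1.19 with 8 of 8 below 0, at -0.33 in control replicate 3 and at -0.73 in the pools against it. Both pools were below every control in 1 of the 8, near the 15% of all tested genes. The keratin gene krt4 was at 44.9, 374 and 322 CPM in the controls and at 199 and 237 CPM in the pools, so control replicate 1 was itself low. Yolk syncytial layer genes (12 of 17 below 0) were at -0.36, with control replicate 3 at 0.25 and the pools at -0.40 against it. Of 52 tested zygotic genes 41 lay below 0, with a median of -0.57, beside -0.46 and -0.17. No keratin and no zygotic gene of these lists was in either set. Heat shock proteins were at 0.13, with control replicate 3 at 0.45 against the other controls and the pools at -0.12 against control replicate 3. The integrated stress response was at 0.03, 0.32 and -0.08 in the same order, and the interferon response at -0.51, -0.72 and -0.02. None of these lists gave a gene to either set. The sets took 0.452% and 0.812% of the genes at the floors of the rule, and lists of these sizes with 0 members are near those shares.

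**Figure D5:**
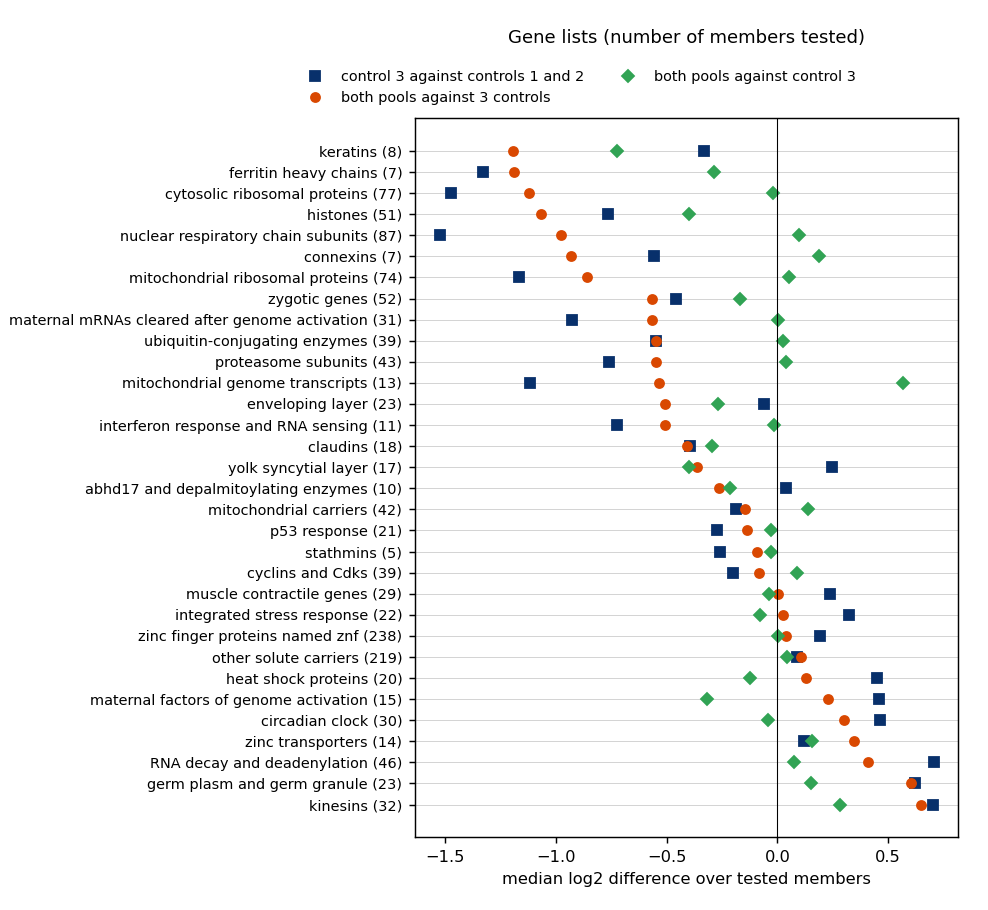
Median log2 difference over the tested members of 32 gene lists, with the number of members in parentheses, for the pools against 3 controls (orange circles), control replicate 3 against the other controls (dark blue squares) and the pools against control replicate 3 (green diamonds). For most lists far from 0 the circle lies on the side of the square and the diamond nearer to 0. Exceptions include keratins, the yolk syncytial layer and the enveloping layer, with diamonds at -0.73, -0.40 and -0.27 that lie farther from 0 than their squares. Mitochondrial genome transcripts also depart, with a diamond at 0.57 beside a circle at -0.53. The histone diamond lies at -0.40, nearer to 0 than the circle and the square.

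Of the 110 genes, 97 matched a protein-coding gene of the RefSeq table by symbol or synonym, and these lay on 24 chromosomes with 0 pairs of direct neighbours and 2 pairs within 10 genes of each other. The kit does not mark the strand of the RNA and the counting is not given in the sources used here, so reads of overlapping or antisense genes cannot be told apart, which bears most on the 18 clone-named members.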

How the data were processed

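The authors deposited whole-number gene counts per library, with 4 entries naming no gene (unmapped, multi-mapped and the like; 26.7% to 53.8% of the counts), which entered neither library sizes nor tests. The second deposited table per library was read as TPM from its values and its equal sums; no source used here gives the step that made it. The submitters' processing notes name bcl2fastq 2.20 and the build danRer11. The aligner is not given in the sources used here, nor is the counter.

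From the counts of 32520 genes, CPM were computed with TMM factors in edgeR 4.0.16 (R 4.3.3). The 14838 genes passing filterByExpr (minimum count 10) were tested with the quasi-likelihood F test, Benjamini-Hochberg adjustment and a threshold of 0.05, with both pools as 1 group and 3 residual degrees of freedom, or 2 with the volume term. Alternatives were DESeq2 1.42.0, limma 3.58.1 (voom, and TPM with a pseudocount of 1 or 0.1), other factors, filters and floors, a volume term, and each library left out. Intervals cover 95% and, like the floor of 3 counts, counts without molecular identifiers. Descriptive log2 ratios of controls used CPM + 0.5. Relative length is count over TPM divided by its median over the tested genes of a library, then the median over the 5 libraries. Length-adjusted CPM, chosen after seeing the data, removes each library's median deviation in 20 bins of length.

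Named were szrd1, any gene called by edgeR, in each set the 15 genes of widest gap with a symbol of their own, members of the 32 gene lists, and the 2 genes just inside and outside the limit. Of these, 1 gene of the lower set is not reported here. Other members were named through function classes made after their values were seen. The members and lists were chosen with earlier results of these data known. Symbols are those of the deposited tables; coordinates and sequences are not used here.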

Additional observations from a re-analysis of the deposited data

How the results depend on the processing

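The main counts were 0 lower and 0 higher calls by edgeR and sets of 37 and 73 genes. DESeq2 called 73 and 40 genes (szrd1 at -2.65), edgeR without a filter 99 and 38 (szrd1 at -2.64) and with the volume term 2 and 1 (szrd1 at -2.84). Leaving out each library gave 0 to 2198 lower and 0 to 2076 higher calls, the highest of both without control replicate 3, and szrd1 between -2.77 and -2.53. The cause was not tested. The lower and higher sets held 235 and 236 genes at a floor of 1 CPM, 73 and 118 at 5 CPM, 21 and 48 at 20 CPM, 143 and 259 at 1.5-fold, and 8 and 13 at 3-fold. With library size alone they held 23 and 108, with TPM 34 and 138 (10 and 46 of them shared), with length-adjusted CPM 26 and 43, and against control replicate 3 alone 236 and 297. Leaving out each library gave 50 to 995 lower and 94 to 1039 higher genes. The upper ends were without control replicate 3 (995 and 1039). Without control replicate 1 there were 83 and 112, 131 and 164 without the pool of 10, and 93 and 171 without the pool of 25. A rule over fewer libraries keeps all earlier members and adds others. The median log2 difference of the shortest of 5 length groups less that of the longest was -1.26, 0.01 with the volume term, and -1.91 to -0.95 without each library, the first of these without control replicate 3. The other 34 genes named by rule were refitted without each library in turn and with TPM. All 34 passed the threshold without control replicate 3, a setting in which edgeR called 2198 genes lower and 2076 higher. Of the 34, 0 passed without control replicate 1, without control replicate 2 or with TPM. Their signs, and their passing without control replicate 3, are largely fixed by how they were chosen. No paired analysis was possible because the labels number the controls only, and the pools differ in their guides. Single pool libraries, a control volume confounded with the pools, 3 residual degrees of freedom and, near the floor of 10 CPM, low counts limit every comparison.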
